A study of Mus musculus with 3 samples.

Results

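Nkx1-2, Gbx2 and Evx1 encode homeodomain transcription factors of the caudal epiblast, and the open chromatin around these 3 genes was compared between 3 samples of differentiated mouse embryonic stem cells. The members were every broad ATAC-seq peak that overlapped the gene body of 1 of the 3 genes or the 50 kb on either side of it, in the GENCODE M21 annotation of mm10. The SOX2-ON list gave 43 of its 129843 peaks, that of SOX2-OFF 39 of 131520, and that of CEpiLC 44 of 130348. Where peaks of different lists shared at least 1 base they were merged, which gave 68 regions at the 3 loci of 219488 in all, with 19 at Nkx1-2, 21 at Gbx2 and 28 at Evx1.

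ATAC-seq measures where a transposase can cut chromatin, and a broad peak is a stretch of enriched cuts. SOX2-ON and SOX2-OFF were the same engineered HM1 line (strain 129), in which endogenous Sox2 had been ablated by gene editing and a doxycycline-inducible Sox2 transgene sat at the Hprt locus, with rtTA expressed from Rosa26. SOX2-ON was kept in 1 µg/ml doxycycline and SOX2-OFF was differentiated without it. The labels give both as Sox2-/-. CEpiLC was the wild-type control with its own Sox2, per the study's methods the parental HM1 TetON line. All 3 samples were grown in 10 ng/ml bFGF and 5 µM LGK974, a blocker of WNT secretion, for 2 days (FL medium), then with CHIR99021, which activates WNT signalling by inhibiting GSK3, and were collected at 72 h. Edited cells were picked as clones, so SOX2-ON and SOX2-OFF share whatever else that line carries. Each group held 1 sample, so no spread between samples can be given and nothing below was tested. A difference between lists is a difference between these libraries.

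The caudal epiblast is the tissue next to the primitive streak from which the spinal cord and the paraxial mesoderm of the trunk arise, and WNT and FGF signals maintain it. NKX1-2 marks these cells and their early neural descendants. GBX2 is expressed in the caudal part of the gastrulating embryo and later sets the anterior limit of the hindbrain, while EVX1 is a relative of the fly protein even-skipped that is expressed in the streak and lies next to the Hoxa cluster. SOX2 is a high-mobility-group factor of pluripotent and neural cells. The comparisons ask how its level goes with accessibility at genes that cells switch on in response to WNT. The study describes SOX2-ON as high in SOX2, and both SOX2-OFF and CEpiLC as low. Elsewhere it calls the level in CEpiLC moderate, and its model sets very low SOX2, with early streak genes induced, apart from lower SOX2. In its account, the SOX2 still found in SOX2-OFF is probably protein that lasted after doxycycline was removed. SOX2 itself was not measured here.

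A stretch near each gene at which the lists differed is printed here, with 2 of them for Gbx2, so that the letters stand beside the values. Beside these stand the centre of the CEpiLC peak over the Nkx1-2 start, which lies upstream of the start itself, and the bases just before the Evx1 start. All 3 lists had a peak over the former. Into the latter the peaks reached 43 bp (SOX2-ON), 117 bp (SOX2-OFF) and 95 bp (CEpiLC). They are RefSeq sequence of build GRCm38.p6, which has the coordinates of mm10 and comes from strain C57BL/6J, whereas HM1 is a strain 129 line. Each is read 5′ to 3′ on the strand of its gene. Capitals mark matches, on either strand, to 5 letter groups. The SOX letters were CTTTGT or the variant CATTGT, and the TCF/LEF letters were CTTTGAT or the variant CTTTGAA. Those of CDX factors were TTTATNG, those of T-box factors TCACACC and those of the octamer ATTTGCAT. CTTTGT and the TCF/LEF forms share their first 5 letters and cannot match at the same place.
Nkx1-2, centre of the CEpiLC peak over the start, chr7:132600158-132600457, minus strand: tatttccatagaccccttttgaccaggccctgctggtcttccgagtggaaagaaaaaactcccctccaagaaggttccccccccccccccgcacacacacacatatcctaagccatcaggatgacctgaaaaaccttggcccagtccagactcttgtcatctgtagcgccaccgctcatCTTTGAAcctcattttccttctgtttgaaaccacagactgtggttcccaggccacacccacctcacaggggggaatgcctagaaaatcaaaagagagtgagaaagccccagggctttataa
Nkx1-2, stretch farther upstream that SOX2-OFF and CEpiLC covered and SOX2-ON did not, chr7:132600805-132601104, minus strand: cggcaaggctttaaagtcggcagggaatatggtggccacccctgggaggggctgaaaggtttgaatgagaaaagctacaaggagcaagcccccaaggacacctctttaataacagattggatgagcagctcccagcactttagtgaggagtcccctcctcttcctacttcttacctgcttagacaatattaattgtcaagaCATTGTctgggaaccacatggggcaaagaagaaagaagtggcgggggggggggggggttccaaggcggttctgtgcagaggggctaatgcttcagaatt
Gbx2, upstream region that ranked far lower in SOX2-ON, chr1:89935784-89936083, minus strand: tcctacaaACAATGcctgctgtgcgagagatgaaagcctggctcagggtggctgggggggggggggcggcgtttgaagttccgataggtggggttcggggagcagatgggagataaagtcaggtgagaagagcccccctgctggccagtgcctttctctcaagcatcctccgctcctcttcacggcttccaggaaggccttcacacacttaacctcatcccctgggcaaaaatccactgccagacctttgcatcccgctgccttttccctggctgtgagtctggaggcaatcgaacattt
Gbx2, downstream region missing from CEpiLC, chr1:89927152-89927451, minus strand: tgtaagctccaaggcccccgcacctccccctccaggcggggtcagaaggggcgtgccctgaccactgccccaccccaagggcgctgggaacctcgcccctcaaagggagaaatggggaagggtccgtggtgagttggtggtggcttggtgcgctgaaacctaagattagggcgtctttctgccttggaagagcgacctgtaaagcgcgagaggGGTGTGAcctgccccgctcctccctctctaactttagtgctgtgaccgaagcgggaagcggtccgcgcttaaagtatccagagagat
Evx1, upstream region missing from SOX2-ON, chr6:52311438-52311737, plus strand: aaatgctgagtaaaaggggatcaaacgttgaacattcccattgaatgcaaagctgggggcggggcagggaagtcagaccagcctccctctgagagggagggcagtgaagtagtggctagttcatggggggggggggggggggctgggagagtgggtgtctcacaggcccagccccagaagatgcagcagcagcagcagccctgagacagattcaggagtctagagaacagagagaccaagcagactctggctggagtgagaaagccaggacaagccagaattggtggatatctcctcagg
Evx1, 250 bases before the start site, chr6:52313248-52313497, plus strand: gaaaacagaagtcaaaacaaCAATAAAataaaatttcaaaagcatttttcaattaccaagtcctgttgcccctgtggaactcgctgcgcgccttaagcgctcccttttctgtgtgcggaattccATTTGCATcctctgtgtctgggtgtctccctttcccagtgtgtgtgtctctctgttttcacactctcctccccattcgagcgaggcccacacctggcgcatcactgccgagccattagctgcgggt

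The first Nkx1-2 stretch held 1 TCF/LEF match, CTTTGAA. The stretch farther upstream held 1 SOX match, CATTGT. The upstream Gbx2 region held 1 SOX match near its edge, and the downstream Gbx2 region held 1 T-box match. None of the 5 letter groups was found in the 300 bp of the Evx1 upstream region, and the Evx1 promoter held 1 CDX and 1 octamer match. The 250 bases before the RefSeq starts of Nkx1-2 and Gbx2 held no match to any of the groups. Letter groups this short are common. A SOX match was found in 37.2% of the 300 bp windows at the midpoints of all SOX2-ON peaks, 32.9% of those of SOX2-OFF and 31.3% of those of CEpiLC. For TCF/LEF the shares were 10.8%, 11.1% and 10.4%, for CDX 9.99%, 10.5% and 9.90%, and for T-box 4.70%, 5.16% and 5.23%. Among the peaks at the 3 loci, 10 of 43 in SOX2-ON, 10 of 39 in SOX2-OFF and 10 of 44 in CEpiLC held a SOX match, which is 23.3%, 25.6% and 22.7%. TCF/LEF matches were held by 6, 6 and 5 of these peaks, CDX matches by 5, 4 and 5, and T-box matches by 5, 2 and 2. The T-box share of SOX2-ON was 11.6%. An octamer was found in none of these windows, against 2.10% of all SOX2-ON windows, 1.96% in SOX2-OFF and 1.64% in CEpiLC. Over the 250 bases before the start of 32851 RefSeq promoters, 9.81% held a CDX match and 1.60% an octamer. A match is a description of the letters and not a bound site.

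The lists were of nearly equal length. Median peak widths were 621 bp (SOX2-ON), 741 bp (SOX2-OFF) and 526 bp (CEpiLC). Read totals were not used here, and the size of −log10 p depends on how many reads a library has, so peaks are given by their percentile within their own list, ordered by −log10 p. Percentile 0 is the strongest and 100 the weakest. The 50000th peak, taken as the limit of the strong peaks, lay between percentiles 38.0 and 38.5 in each list. Chromosome 6, which carries Evx1, took 14.8% of peaks for SOX2-ON, 15.3% for SOX2-OFF and only 4.84% for CEpiLC, so for Evx1 the percentile among the peaks of chromosome 6 is given as well where a region is described by its own values. Chromosomes 1 and 7, with Gbx2 and Nkx1-2, held between 5.21% and 5.88% of each list. The labelled caudal identity was checked at promoters, where a peak within 1 kb of a start was found in every list for all 20 marker genes, from the 6 caudal genes to the 2 endoderm and 2 neural ones. The presence of a peak thus says nothing on which of these cell types the samples were. By rank, in the order SOX2-ON, SOX2-OFF and CEpiLC, the caudal genes T, Cdx1 and Cdx2 were at percentiles 16.3, 8.59 and 10.6, at 17.2, 10.1 and 8.91, and at 15.5, 10.4 and 7.67. The pluripotency genes Klf4 and Pou5f1 were at 5.76, 9.54 and 12.7 and at 6.36, 7.77 and 10.5. Sox2 and Nanog had the same order, while Fgf5, of the same marker class, had the opposite, at 15.6, 9.94 and 8.66. The reference genes Actb and Gapdh also ranked strongest in SOX2-ON, at 1.12, 3.35 and 6.23 and at 4.39, 5.45 and 8.59. That order was thus not particular to pluripotency genes. The caudal genes Fgf8 and Wnt3a, at 14.3, 14.3 and 18.8 and at 11.8, 15.2 and 14.5, were not weaker in SOX2-ON. Of the mesoderm genes, Msgn1 was at 87.4, 14.3 and 17.8, the weakest of the marker promoter peaks in SOX2-ON only. Tbx6 was at 17.2, 16.6 and 20.8, and Mesp1 at 12.0, 14.6 and 16.3, strongest in SOX2-ON.

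Of the 68 regions, 21 were held by all 3 lists, or 30.9%, against 27.0% over all regions. SOX2-ON and SOX2-OFF without CEpiLC held 7, or 10.3% against 10.5%. The pair of SOX2-OFF with CEpiLC, lacking SOX2-ON, held 4, or 5.88% against 6.92%. SOX2-ON and CEpiLC without SOX2-OFF held 3, or 4.41% against 3.28%. A single list held the other 33 regions. Of these SOX2-ON had 11, SOX2-OFF 7 and CEpiLC 15, or 16.2%, 10.3% and 22.1%, against 16.9%, 15.1% and 20.3% over all regions. All 7 shares lay within 5 percentage points of their background. Regions of a single list were mostly weak, with a median percentile of 69.0 for SOX2-ON, 66.6 for SOX2-OFF and 79.7 for CEpiLC.

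**Figure D1:**
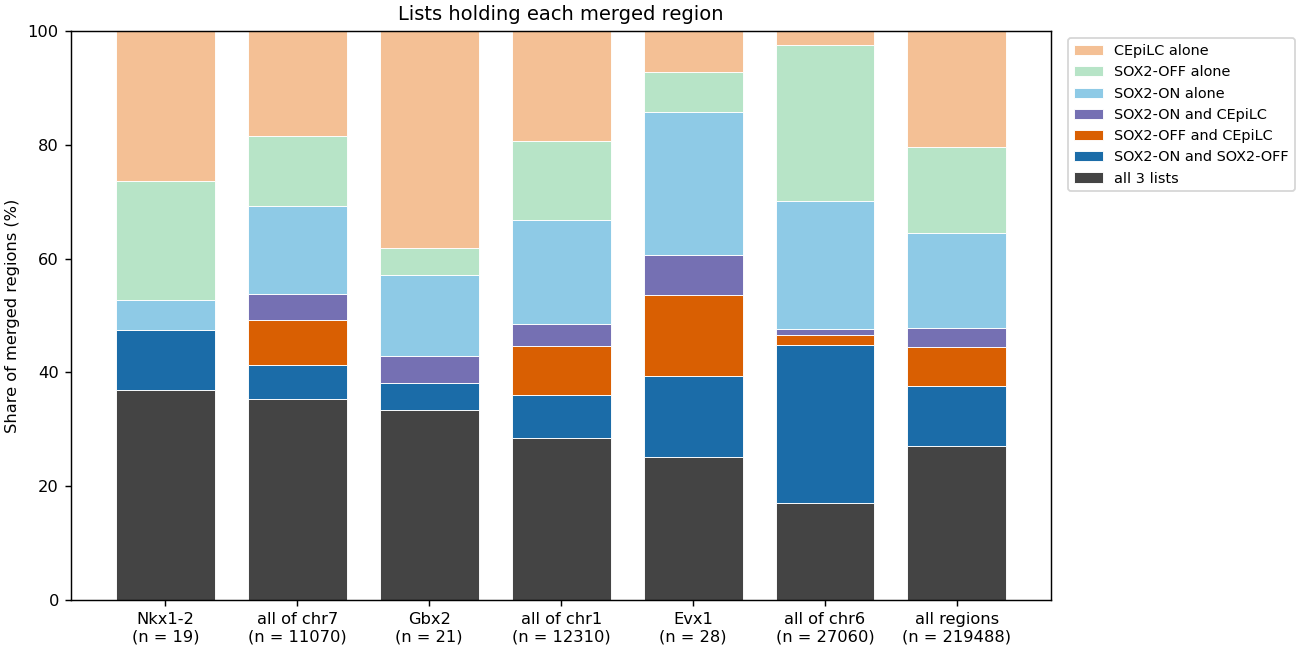
Share of merged regions (%, vertical axis) held by each combination of lists, for each gene and for the whole of its chromosome, with all regions at the right. Evx1 had 4 of 28 regions that SOX2-ON alone lacked, and neither Nkx1-2 nor Gbx2 had any.

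The 3 genes differed in this. All 4 regions shared by SOX2-OFF and CEpiLC and missing from SOX2-ON lay at Evx1, where they were 4 of 28 regions. The share was 6.92% over all regions and 1.81% on chromosome 6. The chromosome 6 share is low partly because its total is large, with 22.6% of its regions in SOX2-ON alone and 27.4% in SOX2-OFF alone. None of the 19 regions at Nkx1-2 or the 21 at Gbx2 was of this kind, against 7.90% on chromosome 7 and 8.69% on chromosome 1. At least 1 region of this kind lay in 61.0% of the windows of the 21938 coding genes, and at least 1 that reached the strong peaks of a list in 29.0%. Evx1 had 3 that did so. The median of such regions, strong or not, was 1 per coding gene window, and the share of windows with as many as Evx1 was not counted. SOX2-ON and SOX2-OFF together, without CEpiLC, held 4 Evx1 regions, against 27.8% of the regions of chromosome 6. All 4 were beyond percentile 50 in both whole lists.

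The windows were of nearly equal length, from 103.2 to 104.9 kb, and peaks covered 9.15% to 15.4% of them, against a median of 6.58% to 8.16% over coding genes. At Nkx1-2 the share covered was 10.4% for SOX2-ON, 14.0% for SOX2-OFF and 12.2% for CEpiLC. At Gbx2 it was 10.4%, 9.15% and 12.2%, and at Evx1 13.8%, 15.4% and 13.8%. No list was thus the most covered at all 3 genes. Evx1 had 20, 17 and 15 peaks. Fewer peaks were found in 85.6% of coding gene windows for SOX2-ON, 74.3% for SOX2-OFF and 58.9% for CEpiLC. Chromosome 6 took a larger share of the SOX2-ON and SOX2-OFF peaks than of the CEpiLC peaks. The share among windows of chromosome 6 alone was not computed. Of the Evx1 peaks 7, 9 and 8 were strong. Nkx1-2 had 11, 13 and 13 peaks, of which 9, 7 and 7 were strong, and Gbx2 had 12, 9 and 16, of which 6, 7 and 6 were strong.

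**Figure D2:**
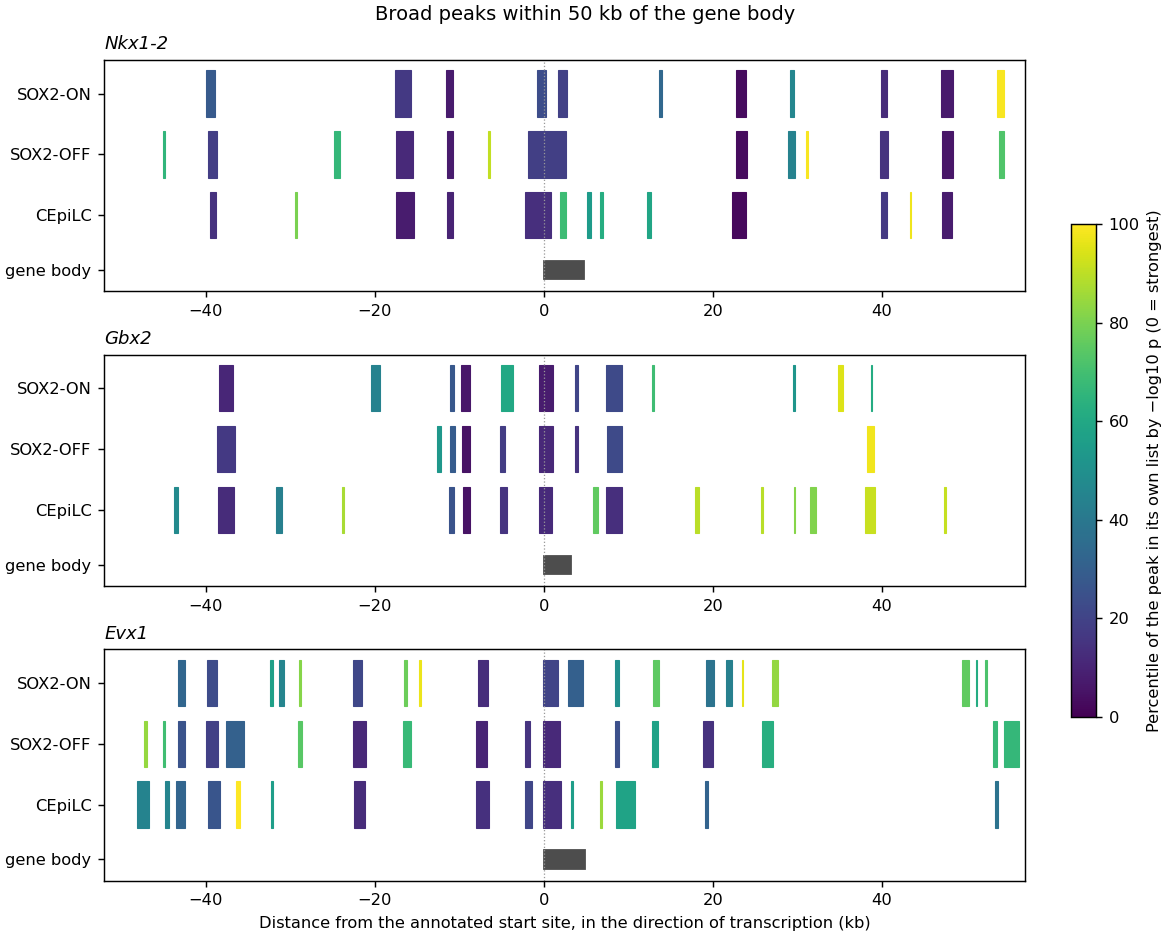
Broad peaks in each list by distance from the start site of the gene (kb, horizontal axis, positive in the direction of transcription), coloured by percentile in their own list, dark being strong. Each gene has 7 regions in all 3 lists and a scatter of paler, weaker peaks that differ between lists.

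The Nkx1-2 gene (ENSMUSG00000048528.7, chromosome 7, 132594878 to 132599637, minus strand) overlaps the antisense transcript Gm16764, which starts inside it and ends at the Nkx1-2 start, and the annotation also runs a long model of Fgfr2 across it. A region of 5052 bp lay over this start. In SOX2-ON it was made of 2 peaks, 1 of 1172 bp over the start and 1 of 1150 bp inside the gene, with a gap of 1314 bp between them. In SOX2-OFF it was a single peak of 4467 bp. In CEpiLC it was a peak of 3158 bp over the start and a weak peak of 656 bp inside the gene, 1055 bp apart. The SOX2-ON peak reached 833 bp upstream of the start, the SOX2-OFF peak 1801 bp and the CEpiLC peak 2249 bp. Upstream, 968 bp were thus covered in SOX2-OFF and CEpiLC and not in SOX2-ON, and the second Nkx1-2 sequence above is the middle of that stretch. The summed widths were 2322 bp (SOX2-ON), 4467 bp (SOX2-OFF) and 3814 bp (CEpiLC). SOX2-OFF was at least 1.5 times as wide as SOX2-ON in 2 of the 21 regions held by all lists, against 24.7% of all such regions, and CEpiLC in 3, against 16.0%. The Nkx1-2 start was among both.

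Strength at this start moved less than width. The strongest peak of the region was at percentile 19.3 for SOX2-ON, 18.4 for SOX2-OFF and 13.6 for CEpiLC. In SOX2-ON that was the peak inside the gene, and the peak over the start was at percentile 23.1. All 3 values were thus among the strong peaks, and they differed by less than 10 percentile points, the size called a difference here. Ordered by fold enrichment the strongest peaks were at 21.5, 28.1 and 23.3, while the SOX2-ON peak over the start itself was at 27.1.

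**Figure D3:**
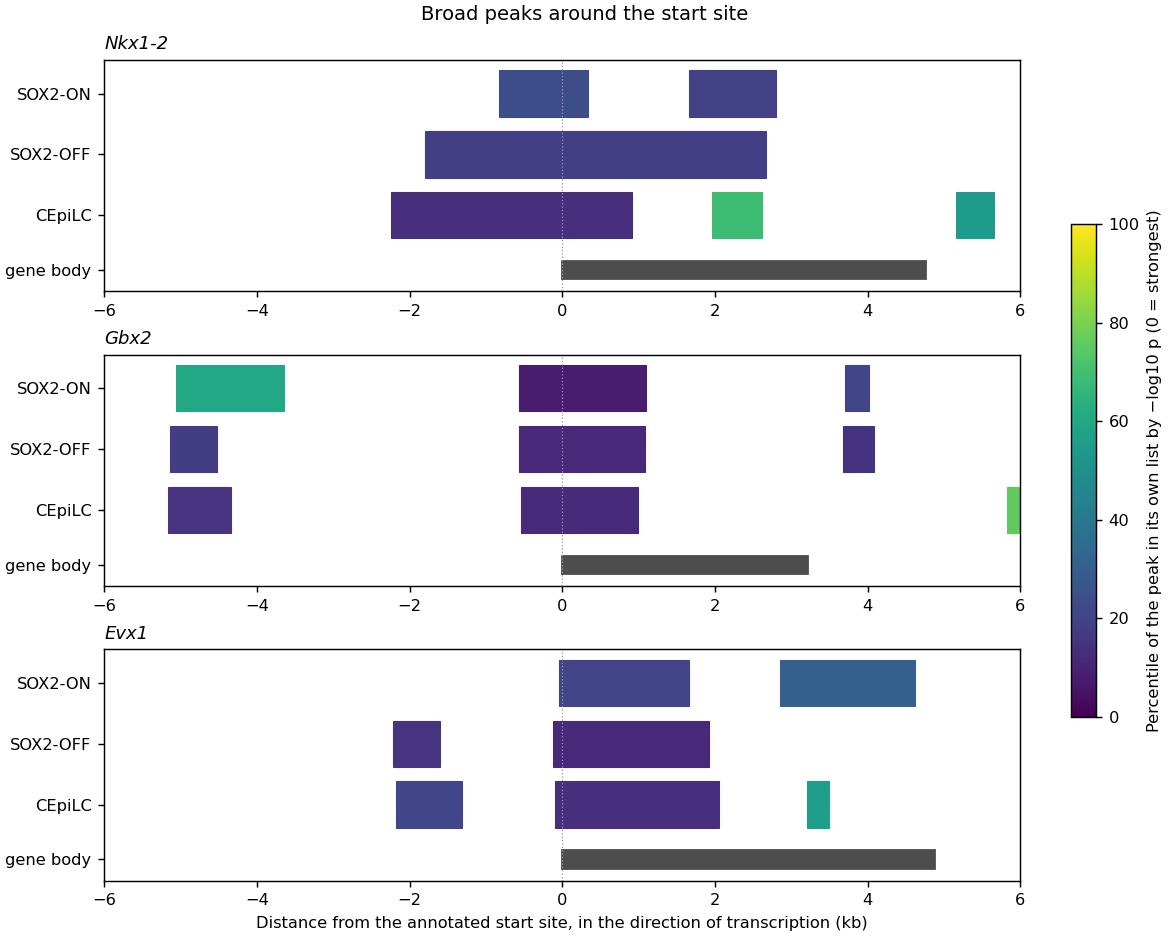
Broad peaks in each list within 6 kb of the start site of each gene (kb, horizontal axis), coloured by percentile in their own list. At Nkx1-2 the SOX2-ON peak over the start reached 833 bp upstream against 1801 and 2249 bp, and at Evx1 the region 1.8 kb upstream has no SOX2-ON peak.

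The other regions of the Nkx1-2 window belonged mostly to neighbours. The strongest was at the start of Oat, which encodes ornithine aminotransferase, at percentiles 2.97, 2.93 and 1.97 in SOX2-ON, SOX2-OFF and CEpiLC, and it barely moved. The start of Lhpp, a phosphatase gene, was at 7.24, 7.26 and 9.38. Away from any start, the region with the best percentile was 47.7 kb downstream of the Nkx1-2 start, within the long Fgfr2 model, at 6.99, 5.66 and 7.64. An intronic region of Lhpp, 16.4 kb upstream of Nkx1-2, was at 16.5, 11.5 and 7.60, and another 39.3 kb upstream was at 28.0, 18.3 and 14.2. In both, SOX2-ON was weakest and CEpiLC strongest. The Nkx1-2 start had that order by −log10 p, with differences too small to be called, but not by fold enrichment. The region 39.3 kb upstream is 1 of 2 at the 3 loci in which SOX2-ON was at least 10 points weaker than CEpiLC. The share over all regions held by the 3 lists was 27.7%. A region over an exon of Oat, 40.3 kb downstream, had the opposite order, at 12.5, 14.5 and 16.5. The 300 bp at its centre held 3 SOX matches, all CTTTGT, and 1 TCF/LEF match. The strong region missing from other lists was a peak of 303 bp in SOX2-ON alone, 13.8 kb downstream, at percentile 33.2.

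The Gbx2 gene (ENSMUSG00000034486.8, chromosome 1, 89927956 to 89931179, minus strand) faces D130058E05Rik, a transcript of the other strand that starts within it. The region over the Gbx2 start was held by 1 peak in each list with nearly the same edges. Its width was 1656 bp (SOX2-ON), 1655 bp (SOX2-OFF) and 1533 bp (CEpiLC), and it reached 563, 570 and 541 bp upstream. Its percentiles were 7.47, 10.9 and 11.9, so by −log10 p this was the only start of the 3 at which SOX2-ON ranked strongest. It kept that order by fold enrichment, at 12.4, 18.5 and 22.7.

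The regions close to Gbx2 did not follow its start. The region 4.4 kb upstream, between Gbx2 and Asb18, was at percentile 60.0 for SOX2-ON, 17.7 for SOX2-OFF and 14.9 for CEpiLC. The weak SOX2-ON peak was also the widest, with 1419 bp against 623 and 828 bp. By fold enrichment the gap was larger, with 99.9 in SOX2-ON against 37.1 and 32.0. Of the 21 regions held by all lists, it had the largest rank difference between SOX2-ON and SOX2-OFF with SOX2-ON the weaker. It was 1 of 4 in which SOX2-ON was at least 10 points weaker than SOX2-OFF, against 26.4% over all regions of this kind. It was the only 1 in which SOX2-ON was at least 1.5 times as wide as SOX2-OFF, against 9.56%, and 1 of 3 in which SOX2-ON was that much wider than CEpiLC, against 23.0%. On the other side, 3.9 kb downstream of the start and just past the end of the gene, a narrow region was at percentile 20.4 in SOX2-ON with 317 bp and at 14.7 in SOX2-OFF with 415 bp, and CEpiLC had no peak there.

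Farther out, a region 9.2 kb upstream was the strongest at Gbx2 in all 3 lists, at 6.15, 4.97 and 4.79, and lay away from any start. A region 8.3 kb downstream was at 22.5, 22.4 and 13.3, with CEpiLC ahead by less than the 10 points called a difference. A region over an exon of Asb18, 37.6 kb upstream, was at 10.7, 16.4 and 12.4, and that 10.9 kb upstream at 27.2, 28.6 and 25.6. At the end of Agap1, 38.7 kb downstream, a weak region was at 61.5, 98.0 and 91.7. It was the only 1 of the 21 in which SOX2-OFF was at least 10 points weaker than SOX2-ON, against 12.0% over all regions, and the only 1 in which CEpiLC was, against 16.8%. CEpiLC alone held 8 of the 21 Gbx2 regions, against 19.4% on chromosome 1, and none of these was among its strong peaks.

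The Evx1 gene (ENSMUSG00000005503.8, chromosome 6, 52313498 to 52318378, plus strand) overlaps the antisense transcript Evx1os, which starts inside it. The region over the Evx1 start lay almost wholly within the gene. It was 1703 bp wide for SOX2-ON, 2045 bp for SOX2-OFF and 2149 bp for CEpiLC, and it reached 43, 117 and 95 bp upstream. Its percentiles were 19.9, 11.5 and 13.3, with SOX2-ON the weakest. Among the peaks of chromosome 6 they were 9.21, 4.68 and 13.5, so that SOX2-ON then ranked above CEpiLC and below SOX2-OFF. The place of SOX2-ON against CEpiLC thus turned with the set of peaks it was ranked in, and its place below SOX2-OFF did not. By fold enrichment the percentiles were 36.2, 31.4 and 25.6, with CEpiLC the strongest.

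The region 1.8 kb upstream, within an intron of Evx1os, was missing from SOX2-ON. SOX2-OFF had a peak of 614 bp there at percentile 14.9, and CEpiLC a peak of 857 bp at percentile 20.8. Among the peaks of chromosome 6 these were at 6.29 and 21.6. By fold enrichment they were at 45.8 and 60.5, much lower in both lists than by −log10 p. It was the only region at the 3 loci that reached the strong peaks of both SOX2-OFF and CEpiLC and had no SOX2-ON peak. The other 3 regions of this kind were weak in at least 1 of the lists that held them. A region 36.5 kb upstream was a peak of 2113 bp at percentile 30.8 in SOX2-OFF, while CEpiLC had 409 bp at percentile 99.9. Within chromosome 6 these were at 14.8 and 99.9. A region 53.5 kb downstream was at 67.3 in SOX2-OFF and 38.1 in CEpiLC, at the edge of the strong peaks, and within the chromosome at 56.2 and 39.1. A region over exons of the noncoding transcript Hottip, 47.4 kb upstream, was at 84.3 and 44.6, with no strong peak, and within the chromosome at 80.2 and 46.3.

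The reverse was seen inside Evx1. A region 3.7 kb downstream of the start, which takes in the last exon, was a peak of 1771 bp at percentile 30.4 in SOX2-ON, and CEpiLC had 282 bp there at percentile 55.8. Within chromosome 6 these were at 15.1 and 57.3. SOX2-OFF had no peak there. The gene body of Evx1 was thus covered farther in SOX2-ON than in SOX2-OFF. The region 1.8 kb upstream was covered in SOX2-OFF and not in SOX2-ON, which had other peaks farther upstream.

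In the 7 Evx1 regions held by all lists, SOX2-ON ranked below SOX2-OFF in 7 of 7, against 63.4% of all such regions and 67.5% of those on chromosome 6. Within chromosome 6 it also did so in 7 of 7, against 65.6%, and by fold enrichment in 6 of 7, with no share over all regions computed for the latter. Against CEpiLC, SOX2-ON ranked lower in 4 of 7 among all peaks and in 0 of 7 within the chromosome, where 14.5% of such regions had that order. The region 7.3 kb upstream had the best percentile away from a start, with 12.6, 9.88 and 13.8 among all peaks and 5.30, 4.02 and 14.0 within the chromosome. The region 21.8 kb upstream was at 21.2, 11.0 and 12.3, and within the chromosome at 9.96, 4.49 and 12.5. Toward the Hoxa cluster, the region 39.1 kb upstream was at 23.0, 18.9 and 26.5, and within the chromosome at 11.0, 8.33 and 27.6. That 42.9 kb upstream was at 32.7, 25.5 and 32.2, and within the chromosome at 16.4, 12.0 and 32.9. SOX2-OFF had the lowest percentile in each of these regions on both scales. By fold enrichment CEpiLC was lowest at 21.8 kb, with 20.8, 11.25 and 9.04, and SOX2-ON at 7.3 kb, with 15.5, 16.6 and 16.2. Downstream of the gene, the region at 19.5 kb was at 37.9, 14.1 and 31.3, and within the chromosome at 19.5, 5.90 and 31.9. The region at 9.6 kb was at 49.2, 24.5 and 58.2, and within the chromosome at 28.5, 11.3 and 59.7. In these downstream regions SOX2-OFF stood above both SOX2-ON and CEpiLC, and they are the 2 of 21 in which CEpiLC was at least 10 points weaker than SOX2-OFF, against 19.1% over all regions and 35.6% of those on chromosome 6. SOX2-OFF was at least 10 points weaker than CEpiLC in 0 of 21, against 15.4%.

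**Figure D4:**
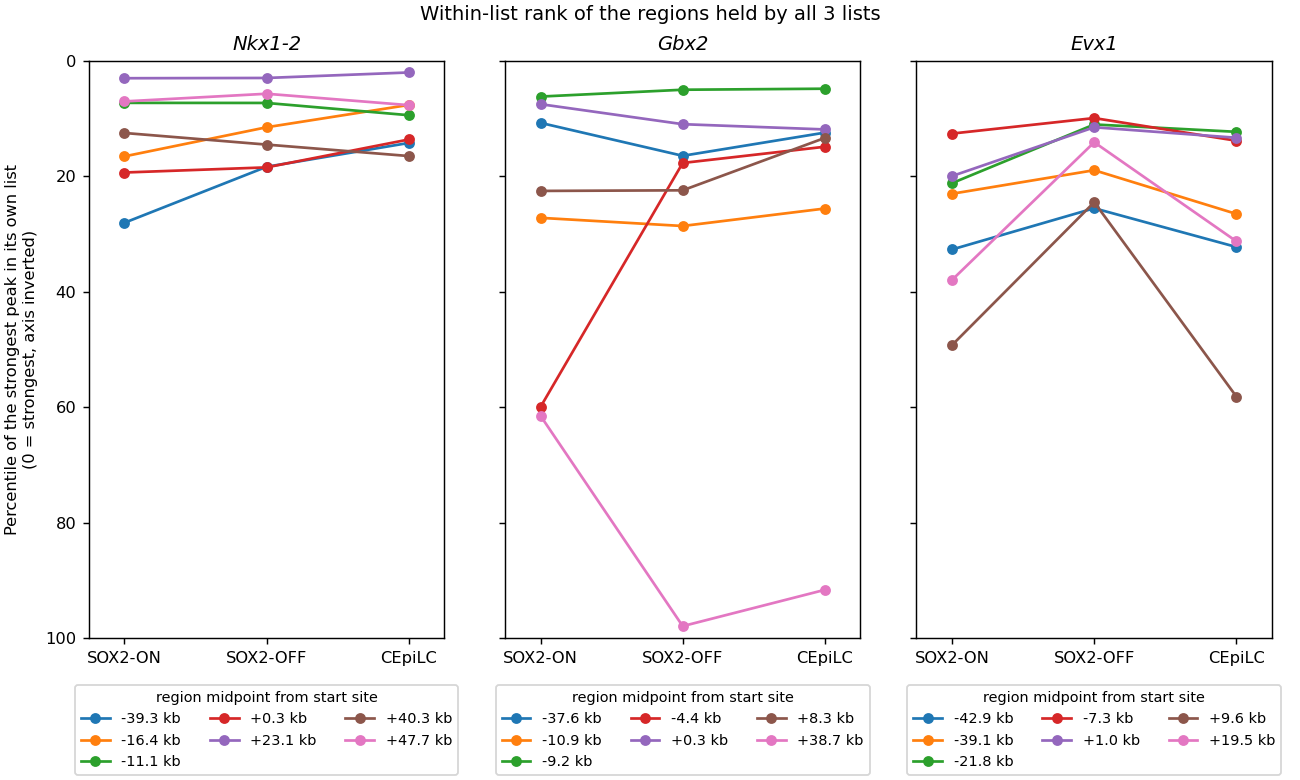
Percentile of the strongest peak (vertical axis, inverted, 0 the strongest) in each list for the 7 regions per gene that all 3 lists held, 1 line per region. The line of the Gbx2 region 4.4 kb upstream drops to 60.0 in SOX2-ON, and all 7 Evx1 lines have their highest point in SOX2-OFF.

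Over the 21 regions held by all lists, SOX2-ON was the weakest of the 3 in 11, against 47.8% of all such regions. SOX2-OFF was the weakest in 3, against 18.9%, and CEpiLC in 7, against 33.3%. Median percentiles at the 3 loci were 19.9, 14.5 and 13.6, and median summed widths 1133, 1246 and 1357 bp. Over all regions of this kind the median percentiles were 29.1, 24.3 and 24.6, and the widths 1006, 1159 and 902 bp. Ordered by fold enrichment, SOX2-ON was the weakest in 7 and the strongest in 9, and within chromosomes it was the weakest in 4 and the strongest in 5. The shares over all regions were not computed for these orders, so these counts cannot be set against a background. The part of the chromosome 6 excess in the Evx1 ranks was not tested beyond these values.

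The windows of Nkx1-1, Gbx1 and Evx2 held 51 regions, of which 29, or 56.9%, were in all 3 lists and 2, or 3.92%, were missing from SOX2-ON alone. The shares of all regions were 27.0% and 6.92%, and of chromosomes 5 and 2, which carry these genes, 31.5% and 30.6% for the former and 8.36% and 8.39% for the latter. The start of Nkx1-1 was like that of Nkx1-2 in shape, with SOX2-ON split into 2 peaks of 2392 bp in sum and a gap of 1907 bp, against single peaks of 4871 bp in SOX2-OFF and 4254 bp in CEpiLC. Its order of strength was different, at 26.1, 37.1 and 30.9, with SOX2-ON the strongest. The start of Gbx1 was at 14.3, 13.3 and 20.1, and no peak covered the start of Evx2. Evx2 lies beside the Hoxd cluster as Evx1 lies beside Hoxa, and 11 of its 13 regions were in all 3 lists, against 30.6% of the regions of chromosome 2. At Evx1 it was 7 of 28, against 17.0% of those of chromosome 6.

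Among 20 other genes of the caudal epiblast or induced by WNT, 19 had within 50 kb at least 1 region that SOX2-ON lacked and both other lists held, and 13 had 1 that reached the strong peaks of a list. The shares over coding genes are the 61.0% and 29.0% above, but the windows of these 20 genes also held more peaks, with medians of 14.5, 15.5 and 19.5 per window against 11, 11 and 12 over coding genes. Some of these windows overlap, as at Hoxb8 and Hoxb9, and longer genes have longer windows. Wnt3a, a WNT ligand of the streak, had 6 such regions of which 4 were strong, and Greb1 also had 6 of which 1 was strong. Wnt8a had 0, as had Nkx1-2 and Gbx2. Evx1 with 4 was nearer the upper end, together with Dll1, a Notch ligand, with 4 of which 0 were strong.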

How the data were processed

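ATAC-seq was done on 50000 cells per sample, with at most 12 PCR cycles per the labels. The authors aligned reads to mm10 with BWA, filtered them and called broad peaks with MACS2 in an nf-core pipeline. One list was deposited per sample, and whether it merged several preparations, and how cut positions were shifted, is not given in the sources used here. The deposited fold enrichment of a peak is the ratio of its pileup to the local background. The deposited −log10 p and −log10 q come from the caller, and the deposited score was not used. A peak has a single value of each for its whole length, so its rank may not be independent of its width. No reads were used, so depth is unknown.

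Peaks were ranked within each list by −log10 p, ties sharing their mean rank. Lists were merged at 1 shared base with pandas 2.3.3, and the merging was tested on simulated data. Regions were named if they overlapped a member's start, were missing from a list while among the strongest 50000 peaks of another, or were the strongest of a locus away from starts, and others are named where a count of calls includes them or as neighbours, chosen after their values were seen. Calls were a rank difference of 10 percentile points or a width ratio of 1.5. Sequences were read with pysam 0.24.0. The genes, lists and motifs were chosen with earlier results of these data known. The closing section gives the alternatives tried.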

Additional observations from a re-analysis of the deposited data

How the results depend on the processing

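The 21 regions in all 3 lists became 8 with windows of 10 kb and 39 with windows of 100 kb. The 4 that only SOX2-ON lacked became 1 with 10 kb, 1 at a −log10 q of at least 2, 2 at a −log10 q of at least 5, 2 among the strongest 50000 peaks of each list, and 0 without Evx1. The 7 that only CEpiLC lacked became 2 with 10 kb, 11 with 100 kb, 3 and 4 at the q limits, 1 among the strongest peaks and 3 without Evx1. The 33 in a single list became 8, 69, 18, 5 and 5 in the same order, without Evx1 excepted. Counts stayed within 1.5 times when peaks had to cover 10% of a region or were reduced to 500 bp at their midpoints. Regions with SOX2-ON at least 10 points weaker than CEpiLC rose from 2 to 4 when ranked by fold enrichment and to 4 within chromosomes. No called rank difference between SOX2-ON and another list changed sign. Some that were not called did, and then passed 10 points with SOX2-ON the stronger. Within chromosomes, SOX2-ON minus CEpiLC went from 6.69 to −12.41 at Evx1 19.5 kb downstream and from 0.427 to −16.48 at Evx1 42.9 kb upstream. In that ranking SOX2-ON was weaker than CEpiLC in only 14.5% of the chromosome 6 regions held by all lists. By fold enrichment SOX2-ON minus CEpiLC went from 1.62 to −12.4 at Gbx2 10.9 kb upstream.

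No paired analysis was possible because no group had more than 1 sample, and for the same reason no sample was left out. Depth is unknown, so the absence of a peak is the absence of a call in that list.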
